A study of Mus musculus with 6 samples.

Results

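The genes described here are the MHC class II genes, which display peptides from engulfed material to CD4+ T cells. They comprise the chain genes H2-Aa, H2-Ab1 and H2-Eb1, the invariant chain gene Cd74, the regulator Ciita, and the peptide-loading genes H2-DMa, H2-DMb1, H2-DMb2, H2-Oa and H2-Ob. The list was given as 10 gene symbols, and every non-control probe whose transcript accession mapped to a listed symbol was used. That rule gave 16 of the 56601 probes tested and 10 of the 23462 genes named on the arrays. All 16 probes were well above background on all 6 arrays, so none was lost or kept through its signal.

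Microglia, the resident macrophages of the brain, were sorted as live CD45-low, Cx3cr1+ and CD11b+ cells from Percoll-enriched brain cells of mice that were 3 months old. The 3 Ctrl samples came from Bhlhe41 dTomato-Cre/+ mice and the 3 KO samples from Bhlhe41 dTomato-Cre/dTomato-Cre mice, which lack the transcriptional repressor Bhlhe41. In this allele a cassette for dTomato and Cre sits before the start codon of Bhlhe41 and is driven by its promoter. The allele is present in every cell of the mouse, and the controls carry it on 1 chromosome, so the comparison is between 1 and no intact copy of the gene, with no wild-type sample on the arrays. The Methods describe a C57BL/6 background and pooling of several mice into each sample. The labels give 3 samples per genotype, and p-values below measure only the spread between these samples.

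The RNA was hybridised in 1 colour to Agilent SurePrint G3 Mouse arrays, so a probe has 1 brightness value in each sample. Values below are quantile-normalized log2 signals, and a difference of 1 on this scale is a doubling. Probes with an adjusted p, over all probes, of at most 0.05 and a log2 change of at least 0.5 in size were called. SE stands for the standard error from limma. Between 70.1% and 75.5% of probes were well above background on an array. Across the arrays 3.34% of probes were called lower and 1.72% higher in KO. When each array was shifted to its 75th percentile instead, 45.8% of all calls were higher, against 34.0% with quantile normalization, because that shift moved the median over all probes from 0.02 to 0.13. The microglial markers Tmem119, with 14.86 ± 0.05 (SD, n = 3) in Ctrl and 14.81 ± 0.05 in KO, and Cx3cr1, with 15.00 ± 0.06 and 14.76 ± 0.07, were bright in all samples. The 2 probes of the targeted gene had log2 fold changes of 0.38 (adjusted p = 0.330) and 0.33 (adjusted p = 0.203). Bhlhe41 RNA was thus not lower in KO, and it does not check the genotype labels, which were used as given.

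An MHC class II molecule is a pair of an alpha and a beta chain assembled in the endoplasmic reticulum on the invariant chain, which fills the peptide groove and steers the complex to endosomes. There the invariant chain is cut down to a short remnant, and the H2-DM heterodimer exchanges this remnant for an antigenic peptide. H2-O binds H2-DM and restrains it. Ciita binds no DNA itself but is recruited by factors on the class II promoters and sets their activity, and interferon gamma induces it. Microglia in the healthy brain carry little class II on their surface and raise it on activation, whereas dendritic cells, B cells and border macrophages of the brain can carry more.

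MHC class II probes were mostly lower in KO microglia. Of the 16 probes, 9 were called lower, 1 was called higher and 6 were not called, or 56.25% lower where 3.34% of all probes were. The called probes belonged to 7 genes, of which H2-Aa, H2-Ab1, H2-Eb1, Cd74, Ciita and H2-DMa had a probe called lower and H2-DMb1 had its probe called higher. The median log2 fold change was -0.61 over the 16 probes and 0.02 over all probes tested. In 13 probes all 3 KO samples lay below all 3 Ctrl samples, which held for 15.2% of all probes. In 2 probes all KO samples lay above all Ctrl samples, which held for 14.5% of all probes, and in 1 probe the samples overlapped. Each array reads the RNA of all cells sorted together, so fewer cells of a class II-bearing type and less class II RNA per cell cannot be told apart.

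**Figure D1:**
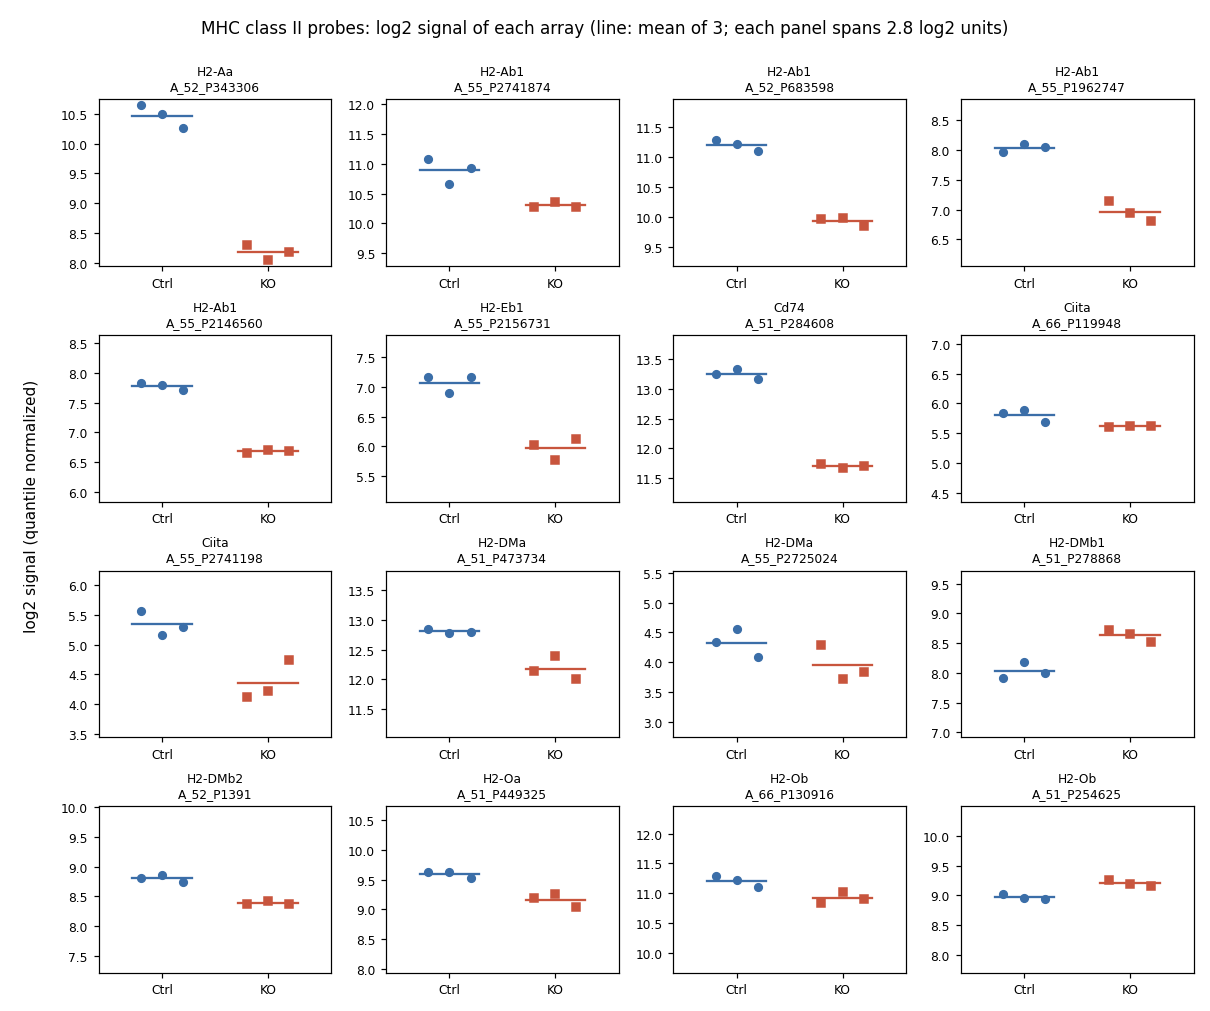
Each panel plots 1 of the 16 MHC class II probes, with quantile-normalized log2 signal on the vertical axis and the 3 Ctrl (circles) and 3 KO (squares) samples on the horizontal axis, and a line at each mean. All panels span the same number of log2 units, so the step between genotypes can be compared by eye. The step is widest for H2-Aa, narrow for the Ciita probe A_66_P119948, and upward for H2-DMb1 and the H2-Ob probe A_51_P254625.

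The classical chain genes were lower on every probe. H2-Aa, which encodes the alpha chain of the I-A molecule, gave log2 signals of 10.64, 10.50 and 10.26 in Ctrl and of 8.30, 8.04 and 8.18 in KO. The KO samples lay at least 1.95 below the lowest Ctrl sample, a distance several times the spread within either genotype. H2-Aa fell by 2.29 log2 units (SE 0.13, adjusted p = 0.00196), which is 4.90-fold, and its probe ranked 85 from the lowest log2 fold change among all probes tested.

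H2-Ab1, the beta chain partner of H2-Aa in I-A, is measured by 4 probes designed on the same transcript. The probe A_52_P683598 gave 11.30, 11.22 and 11.11 in Ctrl and 9.96, 9.98 and 9.84 in KO. It fell by 1.28 (SE 0.08, adjusted p = 0.00314), with a gap of 1.12 between the nearest samples of the genotypes. The probes A_55_P1962747 and A_55_P2146560 had log2 fold changes of -1.08 (adjusted p = 0.00829) and -1.10 (adjusted p = 0.00261), both called lower. The probe with the highest mean, A_55_P2741874, gave 11.09, 10.67 and 10.93 in Ctrl and 10.28, 10.36 and 10.28 in KO, and fell by 0.59 (SE 0.12, adjusted p = 0.0491). All 4 probes thus fell, and the size ranged from 1.51-fold to 2.43-fold between probes of this gene. A_55_P2741874 was no longer called without any single sample (adjusted p from 0.0560 to 0.128) and on the processed values of the authors (adjusted p = 0.0520), while the other probes of H2-Ab1 kept theirs with each sample left out.

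H2-Eb1 encodes the beta chain of the I-E molecule. Its alpha chain partner H2-Ea is not expressed in C57BL/6 mice, and no probe mapped to H2-Ea. H2-Eb1 gave 7.16, 6.89 and 7.16 in Ctrl and 6.02, 5.78 and 6.12 in KO, with no overlap. It fell by 1.10 (SE 0.13, adjusted p = 0.0122), or 2.14-fold. Its call was lost without Ctrl replicate 1 (adjusted p = 0.0545) and without Ctrl replicate 3 (adjusted p = 0.05004), and the log2 fold change was -0.66 with normexp on median signals. The neighbouring beta chain gene H2-Eb2, which is outside the list, was not called on its brighter probe, where the samples overlapped (log2 fold change 0.14, adjusted p = 0.621). The other H2-Eb2 probe was called higher (adjusted p = 0.0208) but was well above background on 0 of the 3 Ctrl arrays and 1 of the 3 KO arrays, so no fold is given.

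Cd74 encodes the invariant chain, the chaperone of class II assembly. It gave log2 signals of 13.26, 13.34 and 13.17 in Ctrl and of 11.73, 11.67 and 11.70 in KO. The KO samples differed from one another by far less than they did from Ctrl, with a standard deviation of 0.03 and a gap of 1.44 to the nearest Ctrl sample. Cd74 fell by 1.55 (SE 0.07, adjusted p = 0.00144), or 2.93-fold. With each sample left out in turn its log2 fold change lay between -1.59 and -1.51, and its call was kept.

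The probes of the regulator Ciita differed. Ciita is in a list of genes that the study chose partly on these arrays, so its values here are no independent evidence. The probe A_66_P119948 gave 5.85, 5.89 and 5.69 in Ctrl and 5.61, 5.63 and 5.62 in KO, a log2 fold change of -0.19 (SE 0.08, adjusted p = 0.228) that was not called, although the genotypes stayed apart by 0.07. The probe A_55_P2741198 gave 5.57, 5.17 and 5.30 in Ctrl and 4.12, 4.22 and 4.74 in KO. It fell by 0.99 (SE 0.20, adjusted p = 0.0454), with KO replicate 3 nearest to Ctrl. This call was kept only when KO replicate 3 was left out (adjusted p = 0.0381) and was lost when any other sample was (adjusted p from 0.106 to 0.132). It was also lost with the 75th percentile shift (adjusted p = 0.0623) and with normexp on median signals, where the log2 fold change was -0.34. The probe A_66_P119948 had -0.11 with the 75th percentile shift. Both probes are designed on the same transcript accession, and no file gives their place in it.

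The peptide-loading genes did not move in 1 direction, and most of their probes were not called. H2-DMa, the alpha chain of the peptide exchanger H2-DM, gave 12.85, 12.79 and 12.79 in Ctrl and 12.14, 12.40 and 12 in KO on its brighter probe. It fell by 0.63 (SE 0.12, adjusted p = 0.0376), or 1.55-fold, with no overlap. The call was kept only when KO replicate 2 was left out (adjusted p = 0.0396), was lost when any other sample was (adjusted p from 0.0824 to 0.119), and was lost on the processed values of the authors (adjusted p = 0.0555) and with the 75th percentile shift (adjusted p = 0.0501). The other H2-DMa probe, designed on a predicted transcript, gave 4.33, 4.56 and 4.09 in Ctrl and 4.29, 3.72 and 3.83 in KO. It was the 1 class II probe whose samples overlapped, with a log2 fold change of -0.38 (SE 0.19, adjusted p = 0.317) that was -0.04 with the slide row as a block, -0.10 with normexp on median signals and -0.25 with the 75th percentile shift.

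H2-DMb1, a beta chain partner of H2-DMa, was the only class II gene called higher. It gave 7.92, 8.19 and 8.00 in Ctrl and 8.72, 8.66 and 8.52 in KO, so that every KO sample lay above every Ctrl sample by at least 0.33. H2-DMb1 rose by 0.60 (SE 0.10, adjusted p = 0.0317), or 1.51-fold. Its log2 fold change lay between 0.52 and 0.68 under all alternatives, and it was no longer called whichever sample was removed (adjusted p from 0.0635 to 0.0987). The second beta chain gene, H2-DMb2, gave 8.81, 8.86 and 8.74 in Ctrl and 8.37, 8.41 and 8.37 in KO. Its log2 fold change was -0.42 (SE 0.07, adjusted p = 0.0286), past the threshold on adjusted p but short of that on fold. The copies are neighbours and closely related in sequence, and no file here gives the probes' sequences, so how far each probe also reads the other copy was not tested.

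H2-Oa and H2-Ob encode the chains of H2-O, the modulator of H2-DM, and were not called. H2-Oa gave 9.62, 9.64 and 9.53 in Ctrl and 9.19, 9.26 and 9.04 in KO, a log2 fold change of -0.44 (SE 0.09, adjusted p = 0.0440) that missed the fold threshold. The probes of H2-Ob lay in opposite directions. The probe A_66_P130916 gave 11.29, 11.23 and 11.10 in Ctrl and 10.83, 11.02 and 10.90 in KO, which is a change of -0.29 (adjusted p = 0.130). The probe A_51_P254625 gave 9.02, 8.96 and 8.94 in Ctrl and 9.26, 9.19 and 9.16 in KO, which is a change of 0.23 (adjusted p = 0.117). On each of them the genotypes did not overlap, and neither passed the threshold.

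By role, all 6 probes of the classical chain genes and the Cd74 probe were called lower, as was 1 of the 2 Ciita probes. Of the 7 probes of peptide-loading genes, 1 was called lower, 1 was called higher and 5 were not called. The median log2 fold change was -1.10 over the classical chain probes and -0.38 over the peptide-loading probes. The change of a gene relative to another was read within each array, as the difference in log2 signal between the probes with the highest mean of 2 genes, in 4 pairs. From Ctrl to KO the difference of H2-DMb1 from H2-Aa shifted by 2.89, from -2.43 ± 0.25 (SD, n = 3) to 0.46 ± 0.14. That of H2-DMb1 from H2-DMa shifted by 1.23. That of Ciita from Cd74 shifted by 1.36 on the Ciita probe A_66_P119948 and by 0.56 on the probe A_55_P2741198. That of H2-Aa from Cd74 shifted by -0.74. The pairs were chosen with the changes of these genes known, so the shifts are a description. The two-sided exact permutation test gave p = 0.1 for each of the 4 pairs, the smallest p that 3 samples against 3 allow, and decides nothing here.

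**Figure D2:**
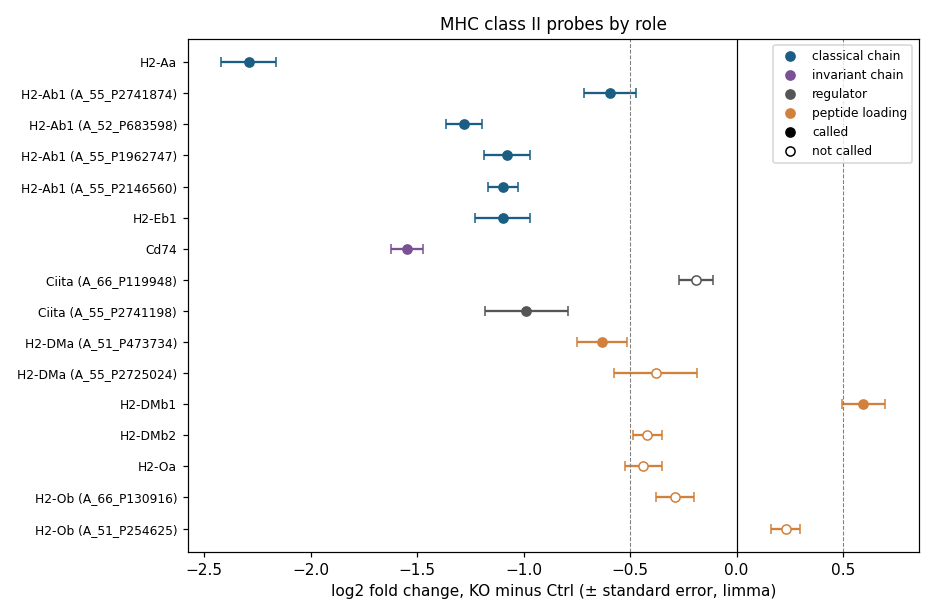
The log2 fold change of KO against Ctrl is plotted for each of the 16 probes with its SE from limma, coloured by role and filled where called, with dashed lines at the fold threshold. The classical chain and Cd74 probes lie between -2.29 and -0.59, and the peptide-loading probes lie between -0.63 and 0.60.

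The arrays lay on 1 slide. The 3 Ctrl arrays and that of KO replicate 1 were in row 1, and the arrays of the other two KO samples were in row 2. Within row 1, KO replicate 1 differed from the Ctrl mean by -2.16 for H2-Aa, -1.52 for Cd74, -1.05 for H2-Eb1 and 0.68 for H2-DMb1. Blocking on the slide row, where the estimate comes from this array, 4 probes were called lower and 0 higher, where 0.459% of all probes were called lower and 0.325% higher. These were the H2-Aa and Cd74 probes and the H2-Ab1 probes A_52_P683598 and A_55_P2146560. In that fit 12 class II probes were lower and 2 higher at an unadjusted p under 0.05 in limma, which held for 8.51% and 7.24% of all probes.

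The list genes on chromosome 17 lie in the order H2-Oa, H2-DMa, H2-DMb2, H2-DMb1, H2-Ob, H2-Ab1, H2-Aa and H2-Eb1, so that the gene called higher sits among genes that were not. Class II promoters carry an X box, bound by the RFX complex, and a Y box, bound by NF-Y, on which Ciita is recruited. RefSeq promoter windows on GRCm38.p6, from 250 bases before each transcript start to 50 after it, were found for 7 of the 10 genes, and those of H2-Ab1, Cd74 and Ciita were not used here. The letters TGATTGG stood for the Y box and AACNNATGA for the X box. They were chosen after these promoters were read, and both strands were searched. The Y box letters were in the windows of 6 of the 7 genes, against 7.82% of all 32851 windows. The X box letters were in 4 of the 7, against 2.85% of all windows. The X box letters followed by the Y box letters within 60 bases, on the strand of the gene, were in those 4 genes and in 10 windows of all 32851, or 0.0304%. The E-box CACGTG, the motif bound by Bhlhe41, was in none of the 7 genes' windows, against 7.15% of all windows. So few windows cannot show a share below that one, and bases further upstream were not searched. Neither window found for H2-DMa held X or Y box letters. Whether either belongs to the transcript on which its brighter probe was designed was not checked.

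The 150 bases before the transcript start are shown for a gene that fell on the array by over 2 log2 units, for 1 that fell by about 1, for the pair of H2-DM beta chain genes that lay in opposite directions, and for H2-Ob, with X and Y box letters in capitals. They lie at chr17:34287824-34287973 on the minus strand for H2-Aa and, on the plus strand, at chr17:34305717-34305866 for H2-Eb1, chr17:34153041-34153190 for H2-DMb1, chr17:34145099-34145248 for H2-DMb2 and chr17:34238755-34238904 for H2-Ob.
H2-Aa: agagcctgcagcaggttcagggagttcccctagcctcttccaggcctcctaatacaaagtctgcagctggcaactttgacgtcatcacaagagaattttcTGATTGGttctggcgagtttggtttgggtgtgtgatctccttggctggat
H2-Eb1: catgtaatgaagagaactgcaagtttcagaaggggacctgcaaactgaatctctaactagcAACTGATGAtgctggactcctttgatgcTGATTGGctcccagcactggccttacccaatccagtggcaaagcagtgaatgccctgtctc
H2-DMb1: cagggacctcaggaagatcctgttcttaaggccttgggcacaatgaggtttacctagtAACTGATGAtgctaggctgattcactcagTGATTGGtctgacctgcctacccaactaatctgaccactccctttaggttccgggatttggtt
H2-DMb2: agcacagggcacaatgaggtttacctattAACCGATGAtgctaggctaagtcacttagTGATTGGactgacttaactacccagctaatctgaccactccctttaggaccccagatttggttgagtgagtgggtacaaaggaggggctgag
H2-Ob: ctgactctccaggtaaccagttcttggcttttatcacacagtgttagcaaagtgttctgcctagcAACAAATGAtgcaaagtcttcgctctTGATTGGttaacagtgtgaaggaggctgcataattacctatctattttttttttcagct
The Y box letters began 50 bases before the start in H2-Aa, 61 in H2-Eb1, 63 in H2-DMb1, 92 in H2-DMb2 and 59 in H2-Ob. In the H2-DM beta chain genes the stretch from the X box letters through the Y box letters was 36 bases long and identical at 32 of them. H2-DMb1, which rose, and H2-Eb1, which fell, thus both hold the X and Y box letters. A match of letters is a description of the sequence and not a measured site.

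Other genes of the class II pathway were read by the probe with the highest mean of each gene. By that rule 4.01% of all genes were called lower and 1.44% higher. Of 7 factors of the class II promoter, 1 was called, the NF-Y subunit gene Nfya, which fell by 0.60 (adjusted p = 0.0429). Nfyb, another NF-Y subunit gene, had a log2 fold change of 0.11 (adjusted p = 0.523) on its brightest probe, while 1 of its 3 probes, A_55_P2017476, was called lower with -0.76 (adjusted p = 0.0355). Rfx5, a subunit of the RFX complex, had a log2 fold change of -0.28 (adjusted p = 0.142). Of 9 genes on the route from interferon gamma to Ciita, 1 was called. The transcription factor gene Irf1 fell from 12.54 ± 0.14 (SD, n = 3) to 11.91 ± 0.13, by 0.63 (adjusted p = 0.0349). The other Irf1 probe was not called. Spi1, a myeloid transcription factor gene, had -0.39 (adjusted p = 0.0420), past the threshold on adjusted p but not on fold. Ifng itself was well above background on none of the arrays.

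None of 7 genes of endosomal processing was called by limma, with 0 lower and 1 higher at an unadjusted p under 0.05, where 14.4% of all genes were lower and 10.6% higher. Ctss, the protease that trims the invariant chain, had 13.87 ± 0.01 in Ctrl and 13.93 ± 0.08 in KO (log2 fold change 0.07, adjusted p = 0.656), and Ctsd had a log2 fold change of 0.10 (adjusted p = 0.524). Neither of the 2 ubiquitin ligase genes for class II turnover was called by limma (1 higher at an unadjusted p under 0.05), Marchf1 with -0.11 (adjusted p = 0.509) and Marchf8 with 0.48 (adjusted p = 0.104). Of 6 co-stimulatory genes, Icosl alone was called, and it fell by 0.53 (adjusted p = 0.0159). The other Icosl probe was not called. None of 12 genes of MHC class I presentation was called by limma, with 2 lower and 1 higher at an unadjusted p under 0.05. Their median log2 fold change was -0.13. The chaperone gene Calr had -0.44 (adjusted p = 0.0358), past the threshold on adjusted p but not on fold. H2-D1 had -0.04 (adjusted p = 0.770), Tapbp had -0.36 (adjusted p = 0.0521) and Nlrc5, the class I counterpart of Ciita, had -0.15 (adjusted p = 0.518). By the same probe rule the class II list had a median of -0.52 with 5 of 10 genes called lower and 1 higher. Over all 23462 genes the median was 0.01. The difference between the lists was not tested.

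Markers of other cells that can carry class II, and of other myeloid cells, were lower in KO in part. The gate required CD11b and Cx3cr1 at low CD45, and how far it left out other cells was not tested. In Ctrl the neutrophil markers Lcn2 and Ltf had mean log2 signals of 12.96 and 12.88, and the B cell marker Cd79b had 9.61. Beside the counts below stands the share over all genes, of which 4.01% were called lower. Medians over markers well above background on all 6 arrays, here and below, leave out markers that were at background only in KO. They can thus understate a fall. Of 11 dendritic cell markers 3 were called lower. Over the 7 with signal well above background on all 6 arrays the median log2 fold change was 0.01, and over all 11, where it falls on a gene at background, it was -0.40. The called markers were Clec10a (-1.92, adjusted p = 0.00226), Cd209a (-1.74, adjusted p = 0.0179) and Irf4 (-0.75, adjusted p = 0.0377). Clec10a was called lower on each of its 2 probes, whereas Cd209a and Irf4 each had another probe that was not called. The lineage-defining genes Zbtb46 and Flt3 had log2 fold changes of 0.01 and 0.14 and were not called, and Xcr1 was well above background on none of the arrays. The summed linear signal of the dendritic cell list was 1724 to 1871 in Ctrl and 1534 to 1716 in KO, but Batf3, with a log2 fold change of 0.03, made up 69.2% to 80.9% of it. Without Batf3 the sum was 497.9 to 553.8 in Ctrl and 297.0 to 328.5 in KO. Of 10 B cell markers 1 was called, Cd79a, which fell by 0.99 (adjusted p = 0.00919). Ms4a1 and Fcrla were well above background on none of the arrays, and the summed signal was 1429 to 1651 in Ctrl and 1542 to 1567 in KO. All 11 border macrophage markers had a negative log2 fold change and 5 were called lower, with a median of -1.02 over all and of -0.61 over the 8 with signal well above background on all 6 arrays. Among those called were F13a1 (-1.92, adjusted p = 0.0374, well above background on 1 of the 3 KO arrays), Cbr2 (-1.44, adjusted p = 0.00681), Ms4a7 (-1.10, adjusted p = 0.0108) and Cd163 (-1.02, adjusted p = 0.00506). The other Cd163 probe was not called. The summed signal of the border macrophage list was 2575 to 2770 in Ctrl and 1796 to 1953 in KO, of which Stab1, with a log2 fold change of -0.49 and not called, made up 79.7% to 84.0%. Without Stab1 the sum was 523.2 to 556.2 in Ctrl and 310.7 to 333.4 in KO. Mrc1 and Lyve1 were well above background on all 3 Ctrl arrays and on 0 of the KO arrays.

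Of 7 monocyte markers 4 were called lower by their brightest probes, with Plac8 at -2.68 (adjusted p = 0.0361, well above background on 2 of the 3 KO arrays), Chil3 at -2.26, Ly6c2 at -2.10 and F10 at least 1.61-fold lower (adjusted p = 0.0134), as it was well above background on 0 of the KO arrays. That bound sets the Ctrl mean against the lowest signal well above background on each KO array. The median log2 fold change was -2.10 over all 7 and -0.30 over the 5 well above background on all 6 arrays, and the summed signal of the list was 1391 to 1468 in Ctrl and 388.6 to 413.2 in KO. All 9 neutrophil markers were called lower, led by Ltf (-3.17, adjusted p = 0.00104), Ngp (-3.13, adjusted p = 0.000336), Mmp9 (-3.00, adjusted p = 0.000282) and S100a9 (-2.52, adjusted p = 0.000895), with a median of -2.51 and a summed signal of 31198 to 35073 in Ctrl and 5820 to 6301 in KO. Of the 10 microglial markers 1 was called, Fcrls, which fell by 0.76 (adjusted p = 0.00581), and their median log2 fold change was -0.05. The part of these cell markers in the class II result was not tested.

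**Figure D3:**
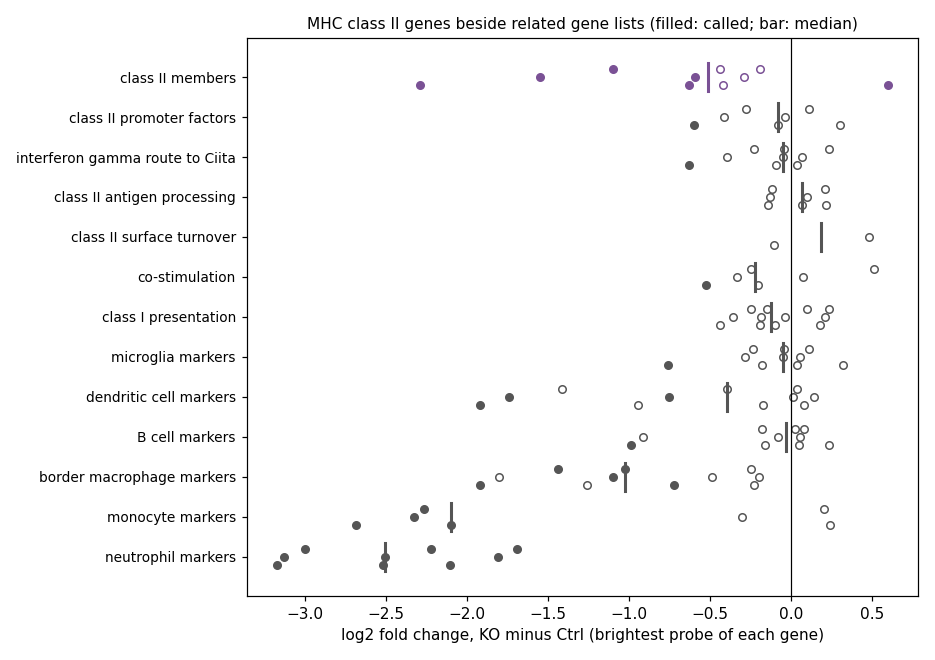
Each point is the fitted log2 fold change of KO against Ctrl on the brightest probe of 1 gene, drawn also for genes not well above background on every array, in rows for the MHC class II genes, other genes of the pathway, class I presentation and markers of cell types, filled where called, with a bar at the median of the list. The class II median of -0.52 lies between those of the class I list (-0.13) and the border macrophage markers (-1.02), and the neutrophil markers have the lowest median.

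The genes whose profile over the 6 arrays lay closest to that of Cd74 were sought among 17197 named genes outside the list with signal well above background throughout. The measure was the root mean square difference in log2 signal after each probe's own mean was subtracted. The closest were Gm826 (0.04), Mmp14 (0.06), Lgals3 (0.07), Ccnjl (0.08) and Cndp1 (0.08). Lgals3, which encodes galectin 3, fell by 1.62 (adjusted p = 0.00157), and Mmp14, a membrane-bound matrix metalloproteinase, fell by 1.58 (adjusted p = 0.00220). These genes were chosen for their likeness to Cd74, so their change is a description.

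The direction of each of the 16 class II probes stayed the same under all 14 alternatives computed for it. H2-Aa kept a log2 fold change of -2.40 to -2.12, and the H2-Ab1 probe A_52_P683598 kept -1.33 to -1.22. Calls were less stable than directions. With each sample left out in turn, 5 probes of 3 genes stayed called throughout, those of H2-Aa and Cd74 and the H2-Ab1 probes other than A_55_P2741874. With 1 sample left out, the number of class II probes called lower was 5 without Ctrl replicate 1 and without Ctrl replicate 3, 6 without Ctrl replicate 2 and without KO replicate 1, and 7 without KO replicate 2 and without KO replicate 3. In these fits 0.972% to 1.81% of all probes were called lower.

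**Figure D4:**
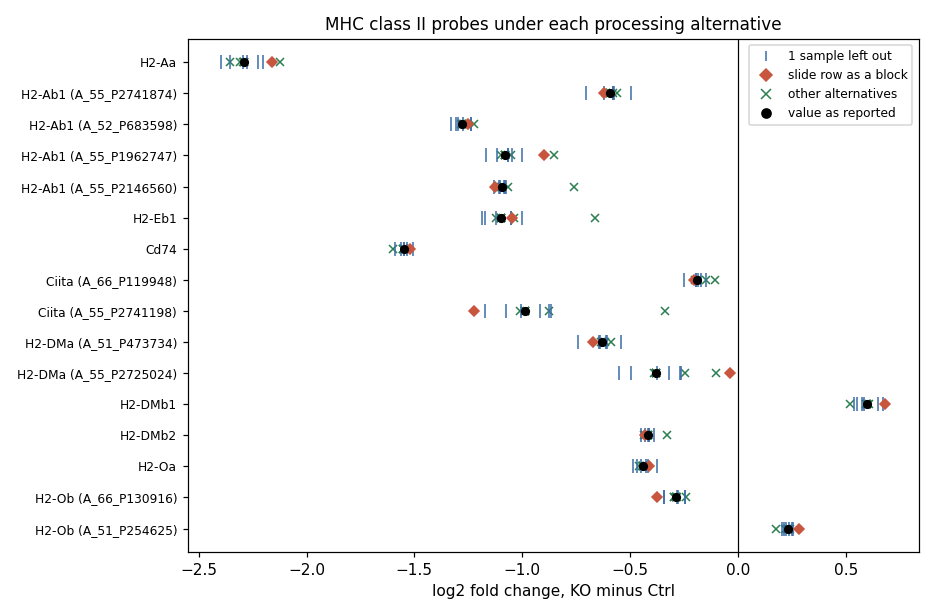
The log2 fold change of KO against Ctrl of each of the 16 class II probes is plotted as reported (black), with 1 sample left out (blue), with the slide row as a block (red) and under the other alternatives (green). No probe crosses 0, and the widest range is that of the Ciita probe A_55_P2741198, from -1.23 to -0.34.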

How the data were processed

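RNA of 6 sorted microglia samples, 3 Ctrl and 3 KO by their labels, was measured on 1-colour arrays. The authors deposited 1 scanner output per array from Agilent Feature Extraction 11.5.1.1, whose intensities are background-subtracted and detrended within the array but not normalized between arrays. They also deposited a table of processed values, read here as log2 although it names no scale. Its columns rank the probes as the scanner intensities do (Spearman correlation 1 to the precision kept), and it was used as an alternative.

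Of 62976 spots, the 59305 that are not controls were used, without the 95 to 136 spots per array that carried an outlier flag. The log2 processed signals were quantile normalized, and spots of a probe were averaged. As the Methods name quantile normalization and limma, genotypes were compared with limma 3.58.1 in R 4.3.3 with genotype as the only term, on 56601 of 56605 probes that had values in at least 2 samples of each genotype. P-values were adjusted by Benjamini-Hochberg over all probes. The scripts were tested on simulated data. The number of arrays limits the precision.

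Probes were named by matching unversioned transcript accessions to RefSeq genes on GRCm38.p6, which named 33767 (59.7%). The array design names mm9, so probe coordinates are not given. Every probe of the 10 genes is named. From the other lists the called genes, at most 4 each, are named, or the brightest genes if none was called, and further list members are named where a value bears on the text. The members and lists were chosen with earlier results of these data known. Alternatives were a 75th percentile shift, the processed values of the authors, normexp (offset 50) on median signals, a filter on detection (well above background on 3 or more arrays), outlier spots kept, trend and robust variance, a replicate block, a slide row block, each sample left out, and no fold threshold. Figures were drawn with matplotlib 3.10.9.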

Additional observations from a re-analysis of the deposited data

How the results depend on the processing

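No class II probe changed direction under any alternative. Of 224 values, 179 stayed on their side of the threshold and 45 called values lost their call. The 179 include every value of the 6 probes that had no call to lose. Over all probes 2867 were called, against 1500 with normexp on median signals, 444 with the slide row as a block, 42 with the replicate number as a block and 792 to 1525 with 1 sample left out. Class II probes called lower numbered 9, against 7 with the 75th percentile shift, 7 on the processed values of the authors, 8 with normexp, 4 with the slide row as a block, 0 with the replicate block and 5 to 7 with 1 sample left out. The 1 called higher was kept with the 75th percentile shift, on the processed values of the authors and with normexp, and was lost under either block and with any 1 sample left out (0 called), with 1 to 2 higher at an unadjusted p under 0.05 in limma when 1 sample was left out (8.55% to 10% of all probes). With the replicate block, 12 class II probes were lower and 2 higher at an unadjusted p under 0.05 in limma, against 11.6% and 10.7% of all probes, and the lowest adjusted p was 0.0570. Deviations of same-numbered samples from their genotype means correlated at 0.13, -0.01 and 0.17 over 38226 probes. Those of differently numbered samples correlated at -0.19 to 0.08. These values do not settle whether the numbers pair the samples. The cause of the lost calls was not tested, and a block or a left-out sample also leaves fewer residual degrees of freedom. All class II probes were well above background, but with normexp the log2 fold changes of the dim probes A_55_P2741198 of Ciita, A_55_P2156731 of H2-Eb1 and A_55_P2725024 of H2-DMa were -0.34, -0.66 and -0.10, against -0.99, -1.10 and -0.38.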
